A study of Mus musculus with 6 samples.

Results

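A set of 10 genes that encode parts of the inflammasome and the interleukin-1 (IL-1) family, plus a DNA-sensing adaptor, were followed in cultured mouse keratinocytes. They are *Pycard*, *Nlrp3*, *Aim2*, *Casp1*, *Gsdmd*, *Il1a*, *Il1b*, *Il18*, *Il1rn* and *Sting1*, which make 10 of the 21368 genes named on the array, read by 11 of its 55681 probes. They were chosen by pathway after *Pycard* had been seen to rise in cells without *Sox4* and *Sox11*. The values of these genes in that comparison are therefore given as a description, with no p-value, and calls counted in it support nothing.

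Primary keratinocytes, the cells that build the epidermis, came from the skin of newborn pups of a 129SvEx:C57BL/6 background. They were expanded on J2 fibroblast feeders and then carried without feeders before RNA was taken. Cells lacked the SoxC transcription factor gene *Sox4* (Sox4 cKO), *Sox11* (Sox11 cKO) or both (Sox4/11 dcKO, dcKO below), and the control was wild-type keratinocyte RNA. Each of 6 arrays held knockout RNA in one dye and wild-type RNA in the other, with 2 arrays a genotype, called replicates 1 and 2. Per the study's methods, floxed alleles were removed by a Cre transgene under the *Krt14* promoter, which is active in basal keratinocytes, on lines bred from mice that also carried a *Sox12* null allele. The Cre mice were FVB/N, so knockout cells can carry alleles of that strain too. Whether the *Sox12* allele remained in any culture is not given in the sources used here. Whether the 6 wild-type RNA samples stem from separate cultures is not stated, so the p-values measure the spread between these arrays.

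Inflammasomes are protein complexes that form when a sensor such as NLRP3 or AIM2 meets a danger signal. The adaptor ASC, the product of *Pycard*, links the sensor to caspase-1. Caspase-1 then cuts the precursors of IL-1β and IL-18 and the pore-forming protein gasdermin D. Keratinocytes are known for their store of IL-1α, which needs no inflammasome to be active and is released from damaged cells.

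The stretches just upstream of *Pycard* and of *Casp1* are shown because *Pycard* carried the rise in dcKO cells and *Casp1* encodes its direct partner. Each is the 250 bases before the gene's start in RefSeq on GRCm38.p6, read 5′ to 3′ on the gene's strand. They lie at chr7:127993868-127994117 (minus strand) and chr9:5298267-5298516 (plus strand). Capitals mark the core of a SOX motif, ACAAAG or ACAATG on either strand.
Pycard: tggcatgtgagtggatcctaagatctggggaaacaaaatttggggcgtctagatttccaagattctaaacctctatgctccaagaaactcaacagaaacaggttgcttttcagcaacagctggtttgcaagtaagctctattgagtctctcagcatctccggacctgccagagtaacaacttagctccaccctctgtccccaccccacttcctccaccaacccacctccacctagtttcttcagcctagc
Casp1: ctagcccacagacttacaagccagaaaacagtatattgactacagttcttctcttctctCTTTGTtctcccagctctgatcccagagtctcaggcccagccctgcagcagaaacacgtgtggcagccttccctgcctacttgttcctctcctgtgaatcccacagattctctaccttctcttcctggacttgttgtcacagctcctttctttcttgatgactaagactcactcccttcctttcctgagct
The *Pycard* window held 0 matches to either core and 2 CpG dinucleotides. The *Casp1* window held 1 match, CTTTGT, the reverse strand of ACAAAG, which starts 191 bases upstream of the gene's start. Of 32851 windows of the same length, 25.2% held either core, and their median CpG count was 6. These letters describe the windows only, since no binding was measured on the arrays.

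Levels below are log2 intensities of 1 channel, and ratios are log2 of knockout over wild type on 1 array. A probe counts as measured in a channel where the scanner software marked it well above background. The dimmest such probes lay between 4.91 and 5.44 in the 12 channels. A gene was called changed at a limma adjusted p under 0.05, over all probes, with a log2 fold change beyond 1.5 in either direction. As a check of the labels, the mean ratio of *Sox4* was -2.52 ± 0.04 in Sox4 cKO and -2.52 ± 0.41 in dcKO cells, and that of *Sox11* was -2.98 ± 0.47 in Sox11 cKO and -3.43 ± 0.51 in dcKO cells (SD, n = 2 each). All 7 keratinocyte markers tested, *Krt5* and *Krt14* among them, were measured in every genotype. Of 8 fibroblast markers, *Col1a2* alone was measured in 2 or more channels. Of 5 melanocyte markers, 3 were measured in 2 or more channels, *Pmel* among them.

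The wild-type channels did not all look alike. In the wild-type RNA of Sox11 cKO replicate 2, *Casp1* stood at 8.76 and *Il18* at 9.93, while the next highest wild-type channels were at 5.46 and 7.42. *Aim2* stood at 6.75 in the wild-type RNA of Sox11 cKO replicate 1, with the other wild-type channels at 4.96 or lower. Ratios on those arrays carry these wild-type levels, so they are given array by array. Their part in the results was not tested.

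**Figure D1:**
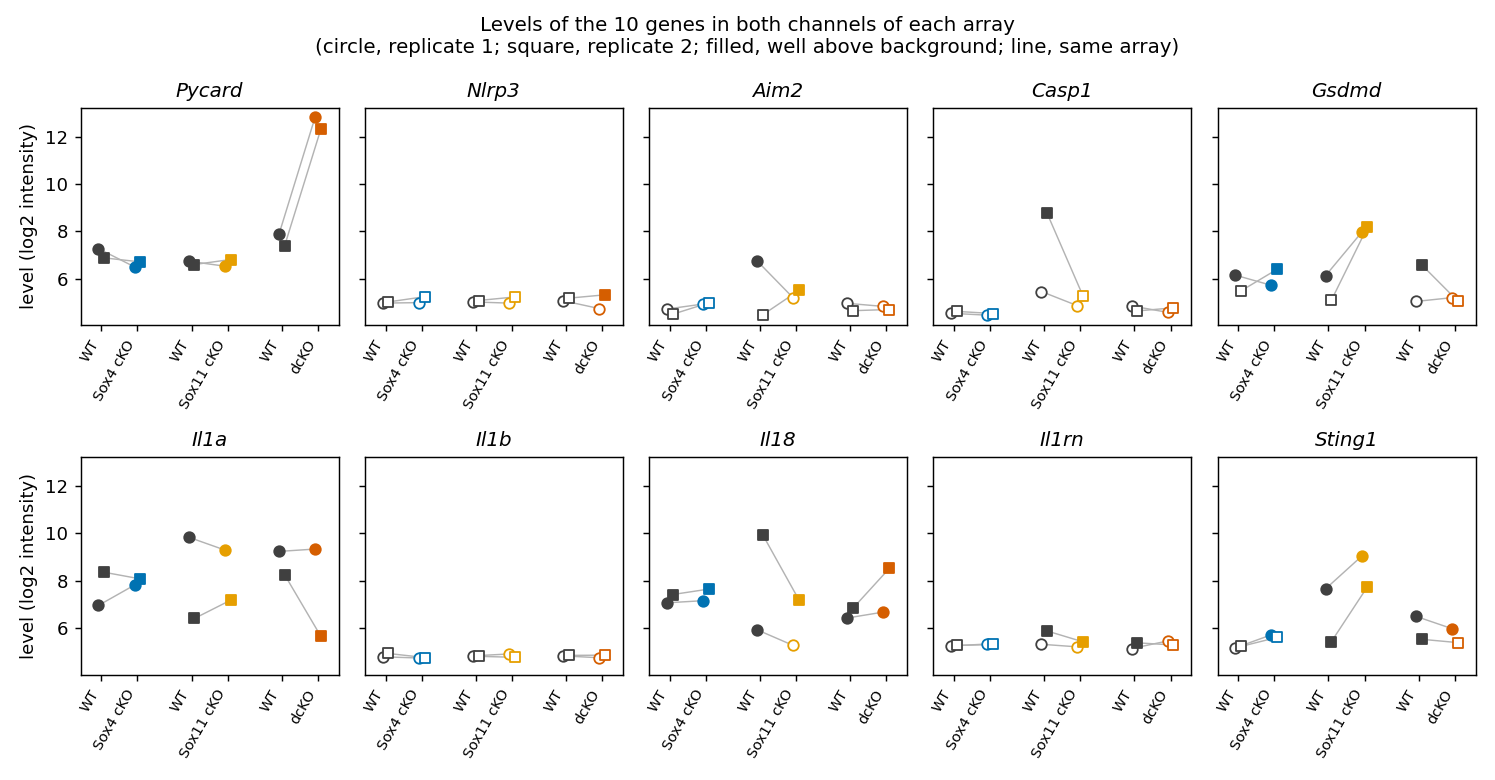
Log2 intensity of the 10 genes in the wild-type (WT, dark) and knockout (coloured) channel of each array, joined by a line per array. Filled points are well above background. *Pycard* lies between 12.31 and 12.81 in dcKO cells and at 7.87 or lower in every other channel, and the points of *Nlrp3*, *Il1b* and *Il1rn* are nearly all open.

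*Pycard*, the adaptor gene, was measured in all 12 channels. In dcKO cells it stood at 12.81 and 12.31, against 7.87 and 7.40 in the wild-type RNA of the same arrays. The ratios were 4.94 and 4.91, a mean of 4.92 ± 0.02 (SD, n = 2), or 30.4-fold. Both dcKO channels lay above all of the other 10 channels, which spanned 6.50 to 7.87. As RNA came from whole cultures, more cells with *Pycard* RNA and more *Pycard* RNA per cell cannot be told apart.

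The single knockouts showed no rise of this kind. *Pycard* stood at 6.50 and 6.71 in Sox4 cKO cells, with 7.27 and 6.88 in their wild-type channels. That gave a mean log2 change of -0.47 ± 0.42 (SD over 2 arrays; 95% interval -0.85 to -0.08; limma adjusted p = 0.577). In Sox11 cKO cells it stood at 6.53 and 6.81, with 6.74 and 6.60 in wild type, a mean log2 change of 0.00 ± 0.29 (SD over 2 arrays; 95% interval -0.38 to 0.38; limma adjusted p = 1). Neither difference passed the test.

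The sensors were near the limit of detection. *Nlrp3*, whose product responds to many kinds of cell stress, had 2 probes. The brighter was measured in 1 of 12 channels, dcKO replicate 2, and the other in 0, and the levels of the brighter spanned 4.74 to 5.32. *Aim2*, a sensor of cytosolic DNA, was measured in 2 channels. These were the wild-type RNA of Sox11 cKO replicate 1, at 6.75, and the knockout RNA of Sox11 cKO replicate 2, at 5.51. Its ratios on those arrays were -1.56 and 1.03, so they had opposite signs, and the mean of -0.27 ± 1.83 (SD, n = 2) did not pass the test (limma adjusted p = 0.985). For both sensors, a difference in dcKO cells was not detectable at this signal.

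The effector protease was not seen where its adaptor rose. *Casp1* was measured in 1 of 12 channels, the wild-type RNA of Sox11 cKO replicate 2, and its knockout channels spanned 4.46 to 5.25. Both channels of both dcKO arrays were not well above background. The ratios in Sox11 cKO cells were -0.60 and -3.51. With 1 of its 2 wild-type channels measured, at 8.76, *Casp1* was at least 3.91-fold lower there on the mean. That bound allows for dim signal and not for the spread between arrays. The log2 change of -2.06 (95% interval -3.20 to -0.91) did not pass the test (limma adjusted p = 0.297). It was -0.50 without Sox11 cKO replicate 2.

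*Gsdmd* encodes gasdermin D, the substrate that opens the cell membrane once cut. It was measured in 7 of 12 channels, from 10 spots an array. In Sox11 cKO cells it stood at 7.96 and 8.18, against 6.13 and 5.09 in wild type, the latter not well above background. The ratios of 1.82 and 3.09 gave a mean log2 change of 2.46 ± 0.89 (SD over 2 arrays; limma adjusted p = 0.182). Both Sox11 cKO channels exceeded all of the other 10 channels, the highest of which was 6.59, yet the fit did not pass the threshold.

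In dcKO cells *Gsdmd* stood at 5.20 and 5.06, neither well above background, with 5.04 and 6.59 in wild type. The ratios were 0.16 and -1.53, and the gene was at least 1.48-fold lower on the mean, with 1 of the 2 wild-type channels measured. The sign rests on 1 array, as the log2 change was 0.81 without dcKO replicate 2 and -2.18 without replicate 1. In Sox4 cKO cells the ratios of -0.43 and 0.91 differed in sign. Spots of the probe on 1 array had an SD of 0.09 to 0.23, smaller than the differences between arrays of a genotype. The difference between dcKO and Sox11 cKO cells was -3.14 on the log2 scale (limma adjusted p = 0.118).

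Among the cytokines, *Il1a* was measured in all 12 channels. It stood at 9.34 and 5.66 in dcKO cells, with 9.24 and 8.25 in wild type, so the ratios were 0.10 and -2.60. Replicate 2 of the dcKO held the lowest *Il1a* level of all channels. In the wild-type channels alone *Il1a* spanned 6.41 to 9.84, with a median of 8.31. The Sox4 cKO ratios of *Il1a* were 0.86 and -0.29. Its Sox11 cKO ratios were -0.54 and 0.77. In both single knockouts the arrays differed in sign, and the mean changes of 0.29 (limma adjusted p = 0.953) and 0.12 (limma adjusted p = 0.995) did not pass the test.

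*Il1b*, the classic caspase-1 substrate, was read by 10 spots an array and measured in 0 of 12 channels. Its levels spanned 4.74 to 4.93, within the range of the background. *Il18*, the other substrate, was measured in 11 channels. In dcKO cells it stood at 6.68 and 8.52, with 6.43 and 6.85 in wild type, ratios of 0.25 and 1.67. In Sox11 cKO cells it stood at 5.27, not well above background, and 7.19. The wild-type channels of those arrays were at 5.93 and 9.93. That gave ratios of -0.66 and -2.74 and a mean log2 change of -1.70 ± 1.47 (SD over 2 arrays; limma adjusted p = 0.428). The Sox4 cKO ratios were 0.09 and 0.23. *Il1rn*, which encodes the receptor antagonist that blocks IL-1, was measured in 3 channels, and its ratios spanned -0.47 to 0.32.

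*Sting1* encodes the adaptor that passes on signals of cyclic dinucleotides made upon sensing of cytosolic DNA. In Sox11 cKO cells it stood at 9.04 and 7.75, against 7.66 and 5.43 in wild type. The ratios of 1.38 and 2.32 gave a rise of 1.85 ± 0.66 on the log2 scale (SD, n = 2; limma adjusted p = 0.0328), or 3.61-fold. This rise was known before the present description was made. Knockout and wild-type channels were ordered alike on both arrays, although their ranges came close, with 7.75 the lower of the knockout and 7.66 the higher of the wild type.

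The call did not hold under several settings. The adjusted p was 0.068 without Sox11 cKO replicate 2 and 0.0913 with no replicate block. *Sting1* in Sox4 cKO cells stood at 5.72 and 5.61, the second not well above background, and was at least 1.34-fold higher than in wild-type channels that were not well above background (limma adjusted p = 0.676). In dcKO cells its ratios were -0.51 and -0.14. The log2 change in dcKO cells was lower than that in Sox11 cKO cells by -2.18 (limma adjusted p = 0.0313). This difference passed the test. It lost its call without dcKO replicate 1 (adjusted p = 0.16) and without dcKO replicate 2 (adjusted p = 0.224).

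**Figure D2:**
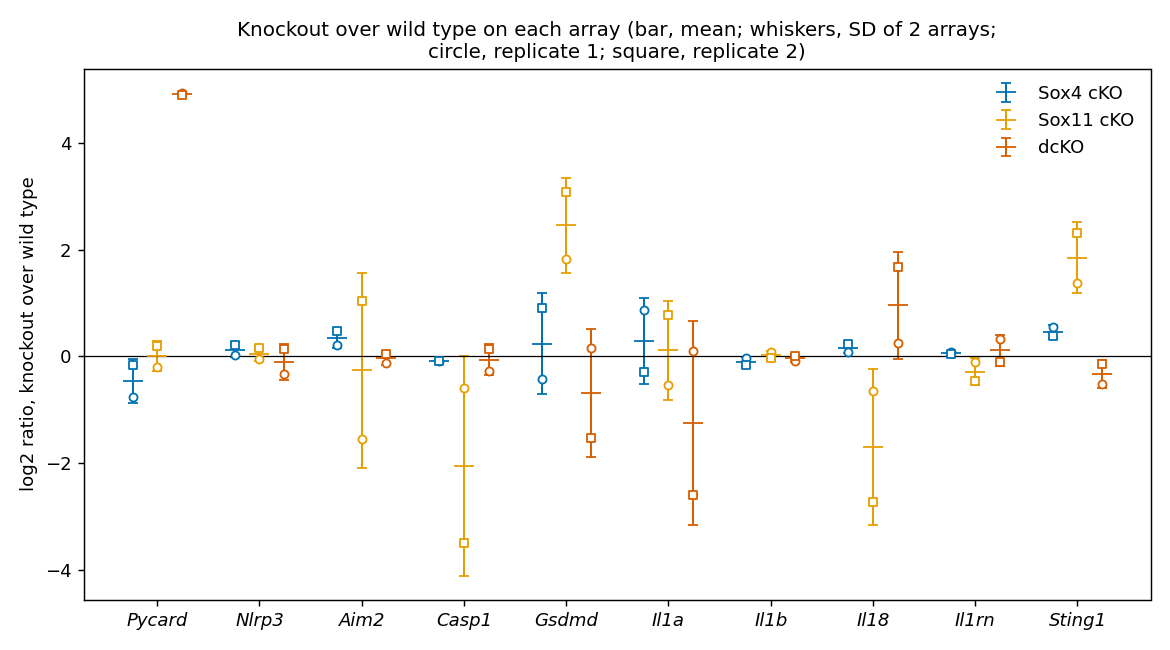
Log2 ratio of knockout over wild type for the 10 genes on each array, by genotype, with the mean as a bar and the SD of 2 arrays as whiskers. *Pycard* in dcKO cells lies at 4.94 and 4.91, and *Gsdmd* and *Sting1* lie above 0 on both Sox11 cKO arrays. The ratios of *Casp1*, *Aim2*, *Il1a* and *Il18* spread widely between replicates of a genotype.

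By count, 0 of the 10 genes were called in Sox4 cKO cells, where 0.159% of all named genes were called, and 1 had an unadjusted limma p under 0.05, as did 10.5% of all named genes. In Sox11 cKO cells 1 was called, *Sting1*, where the share over all genes was 0.178%. There 4 had an unadjusted limma p under 0.05, as did 10.7% of all named genes. These 4 include *Casp1* and *Il18*, whose wild-type level on Sox11 cKO replicate 2 stood apart. In dcKO cells 1 was called, *Pycard*, against 1.39% of all genes, a comparison that the choice of genes had used. Between Sox11 cKO and Sox4 cKO cells 0 were called, against 0.0187% of all genes, and 4 had an unadjusted limma p under 0.05, as did 9.5% of all named genes. Between dcKO and Sox11 cKO cells 2 were called, *Pycard* and *Sting1*, against 0.786%, and between dcKO and Sox4 cKO cells 1 was called, *Pycard*, against 1.03%. In Sox11 cKO cells, calls among the 10 genes and over all probes moved when 1 of the 2 arrays was left out. Such fits leave 1 array in the genotype. Without Sox11 cKO replicate 1, that genotype's log2 changes were -3.61 for *Casp1*, -3.13 for *Il18*, 3.18 for *Gsdmd*, 1.74 for *Il1a* and 2.27 for *Sting1*. Without Sox11 cKO replicate 2 they were -0.50, -0.27, 1.74, -1.50 and 1.43, in that order. Nothing is read from the *Pycard* calls, as dcKO values chose the genes.

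The measured genes near *Pycard* did not rise with it. *Kat8* and *Prss8* lie on one side of it in the order of the RefSeq table, and *Trim72*, *Itgam* and *Itgax* on the other. In dcKO cells the log2 fold change was -0.47 for *Kat8*, a histone acetyltransferase (limma adjusted p = 0.215), -0.34 for *Prss8* and -0.23 for *Itgam*. *Trim72* and the myeloid integrin gene *Itgax* were not well above background in any channel. Their values of 0.00 and 0.10 (limma adjusted p = 0.884 for *Itgax*) therefore allow no statement. None of these 5 was called in any of the 3 genotypes.

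**Figure D3:**
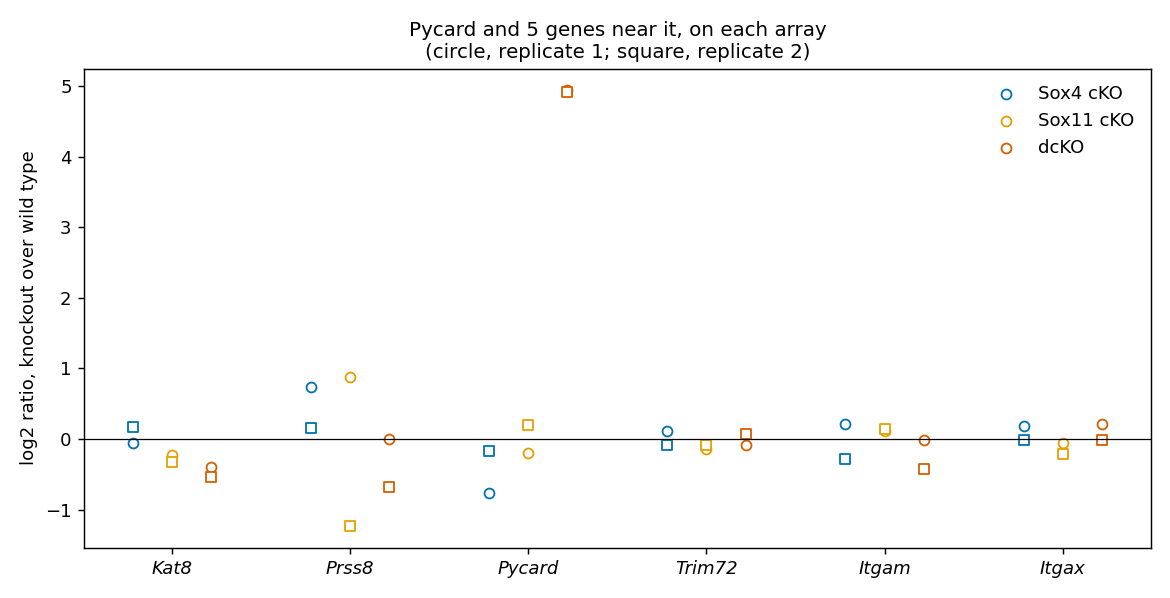
Log2 ratio of knockout over wild type on each array for *Pycard* and 5 genes near it, in table order. *Pycard* in dcKO cells lies at 4.94 and 4.91, while the mean dcKO ratios of the other 5 run from -0.47 to 0.10. *Trim72* and *Itgax* were not well above background in any channel.

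Immune cells also express *Pycard*, so their markers were examined beside it. *Adgre1*, *Lyz2*, *Tyrobp* and *Cd207* were measured in 0 of 12 channels, and *Ptprc* and *Cd74* in 1 channel each. *Csf1r*, *Itgam* and *Cd3e* were measured in all 12 channels and *Fcer1g* in 6. On the dcKO arrays *Csf1r* had ratios of 0.34 and 0.44 and *Cd3e* of 0.25 and 0.36, so both were higher on each array. *Itgam* had -0.02 and -0.43 and *Fcer1g* -0.28 and -0.14, so both were lower, the latter with neither dcKO channel well above background. Of the 10 markers, dim ones included, 3 were higher and 7 lower on both dcKO arrays. The mean level over the 10 markers was 6.27 and 6.31 in dcKO cells and 6.35 on both arrays in their wild type. None of the 10 was called in dcKO cells, and the median of their log2 changes was -0.17. The part of such cells in the *Pycard* values was not tested.

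The genes most like *Pycard* in their pattern were found by the Euclidean distance over the 6 ratios, among the 13526 other genes measured in 2 or more channels. The nearest were *Orm2* (distance 1.18) and *Orm1* (1.32), which encode acute-phase plasma proteins and are near-identical copies whose probes may share signal. Next came *Ly6d* (1.84), a surface protein, *Vnn1* (2.03), a pantetheinase, and *Hspb8* (2.16), a small heat shock protein. The dcKO ratios of *Orm2* were 4.04 and 4.99 and those of *Ly6d* 4.29 and 3.91. Replicates of *Vnn1* were further apart, at 3.50 and 6.11. The wild-type channel behind the 3.50, at 5.18, was not well above background. Nor was any *Vnn1* channel of the Sox11 cKO arrays, so its ratios there rest on dim values. *Hspb8* was lower on all 4 single-knockout arrays, at -0.51 to -1.53.

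Beyond the 10 genes, 81 other genes of the same pathways were listed, of which 79 had a probe and 60 were measured in 2 or more channels. Of the 79, 0 were called in either single knockout, beside 0.159% (Sox4 cKO) and 0.178% (Sox11 cKO) of all named genes. In dcKO cells 1 (1.27%) was called, which was lower, beside 1.39% of all named genes. By limma, 10 (12.7%) had an unadjusted p under 0.05 in the Sox4 cKO comparison and 14 (17.7%) in that of Sox11 cKO cells, beside 10.5% and 10.7% of all named genes. The median log2 change of the 79 was 0.05 in Sox4 cKO, 0.11 in Sox11 cKO and -0.09 in dcKO cells, beside 0.00, 0.00 and -0.01 over all genes. Between dcKO and Sox11 cKO cells 3 (3.8%) were called, all with a lower change over wild type in dcKO cells. Over all named genes 0.786% were called there, 88 higher and 80 lower.

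Of 18 inflammasome sensors and adaptors with a probe, 0 were called, and their dcKO median was 0.12. *Nlrp1a* and *Naip5* were measured in all 12 channels, with dcKO ratios of 0.03 and 0.28 for the first and 0.48 and 0.44 for the second. Both belong to families of close copies, and which copy a probe reads was not checked. *Nlrp6* and *Nlrp10* were measured in 3 and 2 channels. Of 11 caspases, gasdermins and pore proteins 0 were called, and 9 had ratios below 0 on both dcKO arrays. Among these 9, *Casp12*, *Gsdma3* and *Gsdme* were not well above background in any channel of those arrays. *P2rx7* was well above background there only in the wild type of replicate 2. The signs of such dim genes allow no statement, and the share of all genes lower on both arrays was not counted. *Casp4*, the sensor of intracellular lipopolysaccharide, had dcKO ratios of -1.52 and -1.54. Neither dcKO channel was well above background, and *Casp4* was at least 2.60-fold lower there (limma adjusted p = 0.283). Its Sox4 cKO ratios were -0.76 and -2.51, with neither knockout channel well above background, and its Sox11 cKO ratios were -0.50 and 1.87. *Casp8*, which starts apoptosis, had dcKO ratios of 0.70 and -0.68. *Gsdma* had -0.18 and -0.15 and *Gsdmc* -0.21 and -0.33, the latter with neither dcKO channel well above background.

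Of 9 other DNA-sensing genes, *Zbp1*, a sensor of Z-form nucleic acids, differed between genotypes. Its ratios were 0.89 and 1.86 in Sox11 cKO cells (log2 fold change 1.38; limma adjusted p = 0.0417, short of the fold limit) and -0.70 and 0.08 in dcKO cells. The difference of -1.69 passed the test (limma adjusted p = 0.034), but not without either dcKO replicate (adjusted p = 0.171 and 0.211) or without Sox11 cKO replicate 2 (0.064). Neither dcKO channel of *Zbp1* (5.08 and 5.32), nor the wild-type channel of dcKO replicate 2 (5.25), was well above background, so the size of the difference rests on dim values. *Cgas*, which makes the cyclic dinucleotide that STING binds, had Sox11 cKO ratios of 0.57 and -1.92 and dcKO ratios of 0.41 and 0.09. The kinase genes *Tbk1* and *Ikbke*, downstream of STING, had dcKO ratios of -0.12 and 0.21 and of -0.53 and -2.27. The transcription factor gene *Irf3* had -0.25 and 0.02.

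Among the other IL-1 family ligands, *Il36a* (*Il1f6* in the table of names) moved in opposite directions on the dcKO arrays, with ratios of 1.62 and -4.94. Its knockout level there was 11.01 on replicate 1 and 5.59, not well above background, on replicate 2. *Il36g* (*Il1f9*) did likewise, at 1.51 and -1.05. *Il33* and *Il36b* (*Il1f8*) were measured in 3 channels each. None of the 5 ligands with a probe was called.

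Of the 9 receptors and decoys, *Sigirr*, an inhibitory member of the IL-1 receptor family, was the single gene called in any comparison. Its ratios were 1.04 and 1.29 in Sox11 cKO cells and -0.65 and -0.95 in dcKO cells, so that every array of one genotype had a sign opposite to the other. The difference was -1.97 on the log2 scale (limma adjusted p = 0.0224), and the adjusted p was 0.0727 without dcKO replicate 1 and 0.168 without dcKO replicate 2. *Il1r1*, the signalling receptor for IL-1, had dcKO ratios of -0.56 and -0.20, and its partner *Il1rap* 0.10 and -0.12. *Il1rl1*, measured in 2 channels, had 0.36 and 0.25. *Il18r1*, the IL-18 receptor, had Sox11 cKO ratios of 1.45 and 3.33 (limma adjusted p = 0.0913), and the wild-type channel behind the second, at 4.62, was not well above background. All 15 signalling genes were measured in 2 or more channels and 0 were called, with dcKO ratios of 0.08 and 0.31 for *Myd88*, 0.64 and 0.65 for *Irak1*, 0.27 and 0.04 for *Irak2* and 0.55 and -0.19 for *Irak3*, which was not well above background in those channels.

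The list with the largest shift in dcKO cells held 12 genes that IL-1 signalling is known to induce. Their median log2 fold change was -1.11, beside -0.01 over all genes, and 8 of 12 were lower on both arrays. These 8 include *Il6* and *Tnf*, which were not well above background in any channel of the dcKO arrays, so their signs allow no statement. The share of all genes lower on both arrays was not counted. Of the 12 genes 1 was called, *Cxcl2*, a neutrophil chemokine, beside 1.39% of all named genes. Its dcKO levels of 5.42 and 5.09 stood against wild-type levels that gave ratios of -2.68 and -2.19, and it was at least 5.36-fold lower (limma adjusted p = 0.00351). The call was lost without dcKO replicate 1 (adjusted p = 0.108) and without replicate 2 (adjusted p = 0.0893). In Sox11 cKO cells *Cxcl2* stood at 5.94 and 4.85, the second not well above background, with 6.84 and 4.79 in wild type. These knockout levels overlapped those of dcKO cells, neither of which was well above background. The wild-type channels of the dcKO arrays were higher, at 8.10 and 7.28. The change over wild type was called lower in dcKO than in Sox11 cKO cells by -2.01 (limma adjusted p = 0.0489). That call was lost without Sox11 cKO replicate 2 (adjusted p = 0.0719), without either dcKO replicate (0.21 and 0.273) and with no replicate block (0.109).

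Most of the shift came from 1 array. On dcKO replicate 2 the mean ratio of the 12 genes was -2.52, with 11 lower and 1 higher. On dcKO replicate 1 it was -0.43, with 8 lower and 3 higher, the highest at 2.08. That highest gene was at -4.34 on replicate 2, so the arrays differed in sign as well as in size. Dim genes such as *Il6* are among those counted. *Cxcl1*, another neutrophil chemokine, had ratios of -0.69 and -5.11, and *Cxcl5* of -1.48 and -6.23. *Csf2*, a growth factor for myeloid cells, had -1.76 and -2.98. *Tnf* had 0.00 and -0.05, at levels not well above background in dcKO cells. The knockout channel of dcKO replicate 2 had thus the lowest mean level of these genes, 6.56, where that of replicate 1 was 9.52, and it was also the channel with the lowest *Il1a*. The *Pycard* ratios of these arrays were nearly the same, at 4.94 and 4.91.

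**Figure D4:**
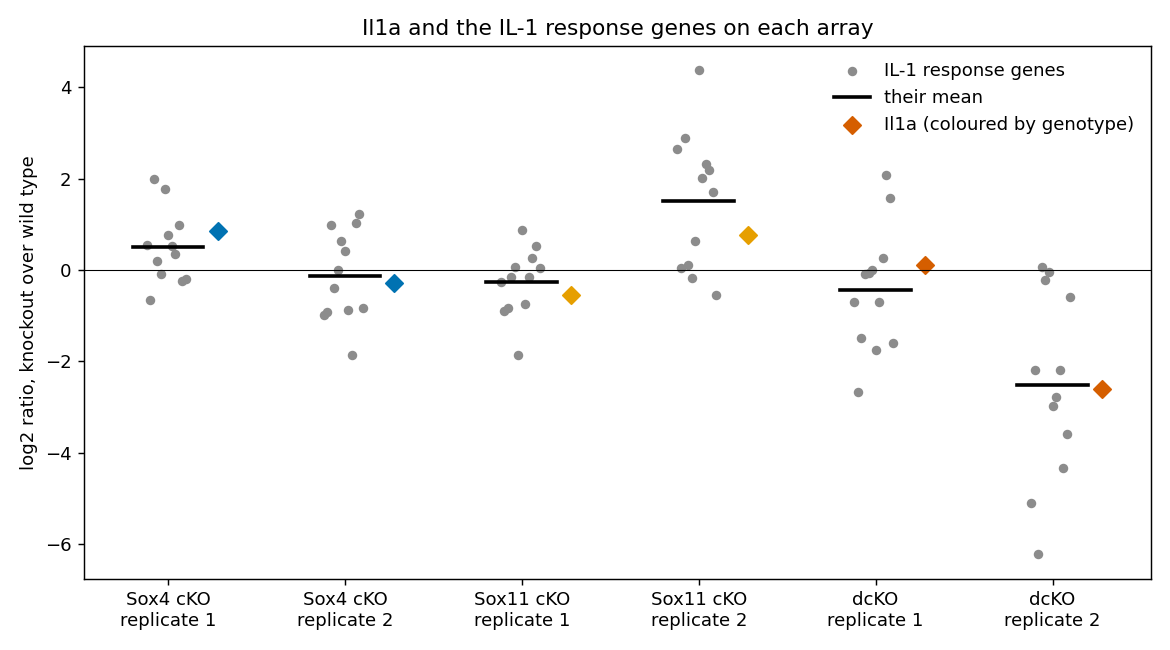
Log2 ratio of knockout over wild type on each array for the 12 IL-1 response genes (grey points, mean as a black line) and for *Il1a* (diamonds). On dcKO replicate 2 the mean is -2.52 and *Il1a* is at -2.60, while on dcKO replicate 1 they are at -0.43 and 0.10.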

How the data were processed

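Per the file headers, each array's scanner output gives linear intensity values, the median spot and local background signals of both channels, which the authors made with Agilent Feature Extraction 11.0.1.1 per the submitters' processing notes. A score of 0 or 1 in the deposited files marks spots above background or outlying. A deposited table of log2 ratios holds the authors' own values, described as offset-corrected and loess normalised with a dye effect removed. Set against the scanner values, its direction was knockout over wild type for each of 6 arrays (correlation 0.89 to 0.952). All arrays shared 1 slide and 1 scan.

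In R 4.3.3 with limma 3.58.1, normexp used the study's offset of 16. The 3671 control spots were left out, outlier spots were set to missing, loess was run within arrays and spots of a probe were averaged. Each probe was fitted over 6 arrays with genotype effects and a dye effect. The dye effect is also a block on the replicate number, since the knockout dye was Cy5 on replicate 1 and Cy3 on replicate 2. Pairing by that number was checked by correlating deviations from the genotype means, which gave 0.316, 0.244 and 0.125. Levels per channel followed Aquantile scaling. For a probe dim on every array of a group, "at least" gives the mean of the brighter group over the mean of each array's dimmest measured signal, or of the probe's own if higher. The number of arrays limits the precision.

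Genes were named through RefSeq accessions (28331 of 29786 probes matched, GRCm38.p6), and the brightest probe stands for a gene. The array was designed on mm9, and its coordinates were not used. All 10 genes are named, with each called pathway gene and up to 4 more a list in their listed order. Genes, lists and tests were chosen with earlier results of these data known. The model was tested on simulated data. One gene covered by the naming rules is not reported here.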

Additional observations from a re-analysis of the deposited data

Results flagged for a closer look

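Of 8 genes with a measured wild-type channel, 4 had 1 wild-type channel far from the other 5. The rule used marks about 1 in 20 groups by chance, but that rate cannot be set against these 4 genes. For *Casp1* and *Aim2* the other 5 channels were not well above background, so 1 measured channel stands apart by itself. *Casp1*, *Il18* and *Il1rn* were flagged in the same channel, so they are not separate cases. The count is therefore a description. All 4 outlying levels lay on Sox11 cKO arrays. On replicate 2 these were *Casp1* at 8.76 (next highest 5.46), *Il18* at 9.93 (next highest 7.42) and *Il1rn* at 5.88 (next highest 5.38), and on replicate 1 it was *Aim2* at 6.75 (next highest 4.96). The levels are log2 intensities, and their part in the Sox11 cKO ratios was not tested beyond leaving out each array.

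The log2 change in dcKO cells was lower than in Sox11 cKO cells, by the test of the difference, for *Sting1* (-2.18), *Cxcl2* (-2.01), *Sigirr* (-1.97) and *Zbp1* (-1.69). All of these calls were lost with an offset of 50 (limma adjusted p = 0.123 to 0.183) and with the processed signals (0.359 to 0.403). They were also lost when either dcKO replicate was left out.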

How the results depend on the processing

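In Sox11 cKO cells the count of called genes among the 10 went from 1 to 0 with an offset of 50, with the processed signals, with no replicate block, without dim probes, and with Sox11 cKO arrays alone and no replicate block, a fit chosen after seeing the data. In dcKO cells it went from 1 to 0 with the processed signals, where 0 of all probes were called and *Pycard* had a log2 change of 5.27. Between dcKO and Sox11 cKO cells it went from 2 to 0 with an offset of 50 and with the processed signals, and to 1 with no replicate block and without dim probes. Between dcKO and Sox4 cKO cells it went from 1 to 0 with an offset of 50 and with the processed signals, and to 2 (*Pycard* and *Il1a*) with only the arrays compared. Median centring gave 3 between dcKO and Sox11 cKO cells, adding *Gsdmd* (-3.24, adjusted p = 0.0461). With no replicate block the other 4 counts were the same.

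Leaving out 1 array at a time, the counts ran from 0 to 0 (Sox4 cKO), 0 to 5 (Sox11 cKO), 1 to 2 (dcKO), 0 to 3 (Sox11 cKO minus Sox4 cKO), 1 to 6 (dcKO minus Sox11 cKO) and 1 to 1 (dcKO minus Sox4 cKO). The count of 5 came without Sox11 cKO replicate 1, where *Casp1* (-3.61), *Gsdmd* (3.18), *Il1a* (1.74) and *Il18* (-3.13) passed with *Sting1*. The dcKO change of *Pycard* was lowest, 4.39, with median centring.

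The direction turned for *Pycard* in Sox11 cKO cells under median centring (0.00) and without Sox11 cKO replicate 2 (range -0.06 to 0.06 over both arrays left out), for *Aim2* (-1.45 to 0.92) and *Il1a* (-1.50 to 1.74) in Sox11 cKO cells, and for *Gsdmd* (-0.54 to 1.02) and *Il18* (-0.07 to 0.39) in Sox4 cKO cells when 1 array of the genotype was left out. In dcKO cells, without replicate 1 and without replicate 2, *Gsdmd* was at -2.18 and 0.81, *Il18* at 2.16 and -0.24 and *Il1a* at -2.64 and 0.14. Of the single-knockout values, *Il1a* without Sox11 cKO replicate 1 was called, in a fit where calls over all probes rose as well. Median centring split all dcKO calls into 121 higher and 599 lower, beside 174 and 247 here, and the processed signals moved the dcKO median of all probes by 0.14. Mean spot signals were planned and not run. The cause of these changes was not tested. Genes near background, such as *Casp1*, *Nlrp3* and *Il1b*, allow no statement on small differences.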

Other observations

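On 5 of the 6 arrays the ratio of *Il1a* and the mean ratio of the 12 IL-1 response genes had the same sign, which was counted after the values had been seen and is given with no test. On the other, dcKO replicate 1, they were 0.10 and -0.43. Both ratios on 1 array share its wild-type RNA. The response genes were chosen as an IL-1 list and are induced by other signals too.

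The wild-type channels themselves spanned much of this range. *Il1a* ran from 6.41 to 9.84 and the mean level of the 12 response genes from 7.52 to 9.95, and that mean was highest in the wild-type RNA of Sox11 cKO replicate 1 and of both dcKO arrays.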
